A study of Mus musculus with 27 samples.

Results

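The genes described here are 35 genes of myelin, of mature oligodendrocytes and of their precursors, taken from a deposited expression table of 26264 gene symbols by matching each symbol, in lower case, to a list (mbp, mog, mobp and so on). They fall into 29 genes of the mature cell and 6 genes of precursors or committed precursors. RNA was measured by RNA-seq in a small block of cortex from each hemisphere of female 5xFAD mice, 16 weeks old, 24 h after microinjection of 500 nL into the parietal cortex of one side. The study injected R55 or R33, compounds made to stabilize retromer, a complex that sorts cargo out of endosomes, at 10 mM, or the vehicle solution, which held the same DMSO and beta-cyclodextrin without a compound. Every mouse in all 6 groups carried the 5xFAD transgenes, which drive amyloid deposition under a neuronal promoter, so no group without amyloid pathology was part of these comparisons. The 27 libraries used came from 14 mice, of which 4 had received vehicle, 5 R33 and 5 R55, and 13 of them gave both hemispheres. Of R33 mouse AE the injected block only was used, and 5 further libraries of the table were not used here.

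Oligodendrocytes wrap axons in compact myelin, a stack of membranes rich in galactolipids and held together by a small set of abundant proteins. They arise from precursor cells that carry the platelet-derived growth factor receptor Pdgfra, pass through a committed stage marked by Gpr17, and turn on the myelin genes under Olig2, Sox10 and Myrf. In the cortex, myelinated fibres and mature oligodendrocytes become denser towards the white matter, whereas precursors are spread more evenly.

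Levels are given as FPKM, fragments normalized to gene length and to the fragments counted in the library, and libraries held 15932196 to 38077026 fragments on genes. Differences are given as log2 fold changes on the scale of log2(FPKM + 1), from a limma fit over the 12976 genes whose mean level reached 1 FPKM, with treatment and hemisphere as factors. This scale understates the differences of genes at a few FPKM. A gene was called where its Benjamini-Hochberg adjusted p was under 0.05. Neuronal RNA was evident in every library, with a mean log2 value of 7.37 to 7.94 over 10 neuronal markers, which are not particular to cortex. The mean over 6 markers of the upper cortical layers ran from 4.07 to 5.29. Of 8 Schwann cell markers, 3 reached the mean of 1 FPKM. These were Pmp22 (10.2 to 23.6 FPKM), Cdh19 (1.63 to 5.12 FPKM) and Egr2 (0.404 to 4.81 FPKM). Of the others, Pmp2 was at 0 in 25 libraries and Prx stood at 0.141 to 0.386 FPKM. Markers of neighbouring regions were high in some blocks, with 5 libraries high in choroid plexus markers, and 2 injected libraries, of vehicle mouse L and R33 mouse N, high in striatal markers. The mean log2 value of the hippocampal neuron markers ran from 1.77 to 3.81 and was highest in the injected block of vehicle mouse M, where Lct stood at 7.07 FPKM against a median of 0.512 FPKM. In the injected library of R33 mouse AD and the contralateral library of R55 mouse Q, values relative to the other libraries were lower for longer genes (Spearman rho of -0.686 and -0.697 over the tested genes). The rho was -0.436 in R55 mouse AB, -0.432 in R33 mouse AD and -0.332 in R55 mouse AA, all contralateral. It ran from -0.697 to 0.183 in R55 contralateral and from -0.160 to 0.414 in R55 injected libraries. In bulk tissue, fewer cells of a type and less RNA per cell cannot be told apart.

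All 35 members were detected in all libraries and all passed the limit of 1 FPKM. Mbp, the myelin basic protein gene, was the most abundant at a mean of 576 FPKM, followed by Mobp (182 FPKM), the iron carrier Trf (177 FPKM), Cnp (158 FPKM) and Qdpr (158 FPKM). The lowest were Enpp6 (2.51 FPKM), Neu4 (1.88 FPKM) and Vcan (1.08 FPKM). Even the member with the fewest fragments, Tmem125, rested on 152 to 467 fragments per library, so that counting error was small beside the spread of the mature members. This holds less for Neu4 (158 to 350 fragments) and Vcan (175 to 654 fragments). Their SD about the group means was 0.15 and 0.18 on the log2 scale. The 29 mature members moved together from library to library, and within each hemisphere the treatment groups overlapped for every member except Car2. For Car2, every R55 injected value lay below every R33 injected value, as for 0.17% of all tested genes. That share covers this pair, hemisphere and direction only, whereas Car2 was found by looking over all of them. The share of all tested genes over all of them is not given. The contralateral library of vehicle mouse L was the lowest of all 27 for 23 of the 29 mature members, and the injected library of R33 mouse O was the highest for 25 of them.

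**Figure D1:**
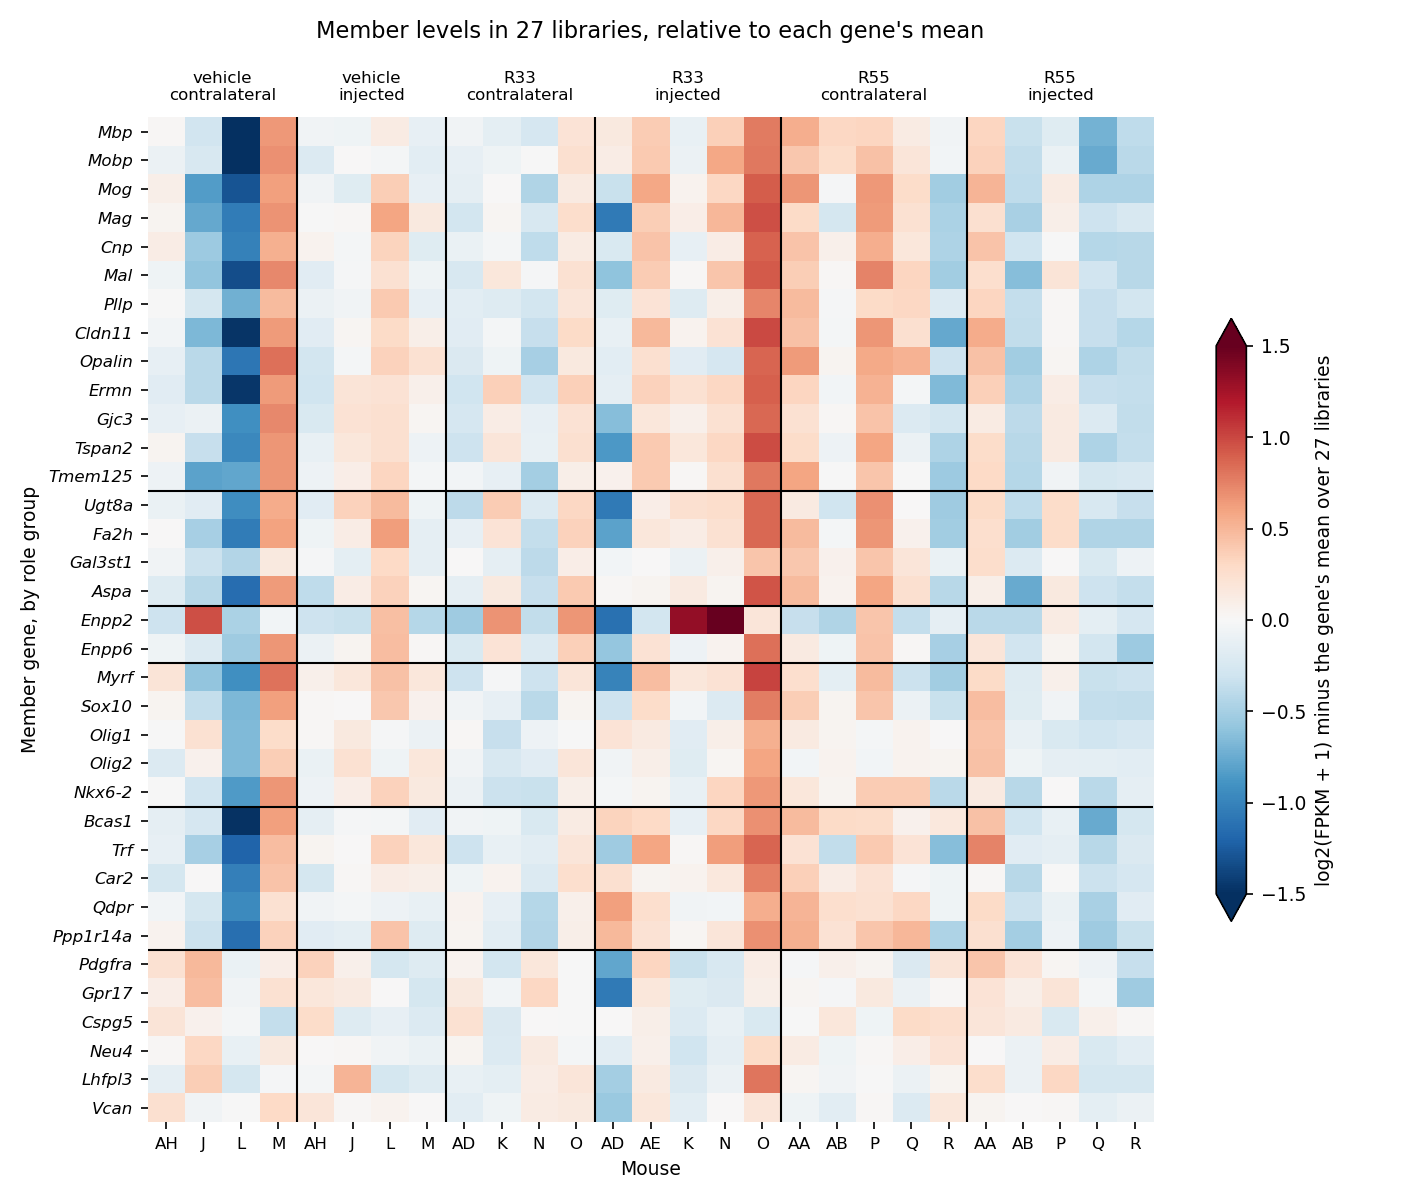
Level of each of the 35 members (rows, by role group between the horizontal lines) in each of the 27 libraries (columns, named by mouse, in the 6 groups), as log2(FPKM + 1) minus the mean of that gene over all libraries. The mature members rise and fall as columns, with vehicle mouse L contralateral low and R33 mouse O injected high, while of the 6 precursor members in the lowest block Lhfpl3 alone is highest in R33 mouse O injected and none is lowest in vehicle mouse L contralateral, and Enpp2 departs from the other mature members.

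Values are given below in the order of mice AH, J, L and M for vehicle, AD, K, N and O for R33 with AE after AD in the injected blocks, and AA, AB, P, Q and R for R55.

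The proteins of compact and paranodal myelin and of the oligodendrocyte membrane were represented by 13 members. Mbp binds the cytoplasmic faces of the myelin membrane together. In vehicle-treated mice, Mbp stood at 558, 453, 192 and 869.8 FPKM contralaterally and at 531, 528, 600.3 and 508 FPKM in the injected blocks. R33-treated mice had 532, 501, 462 and 635 FPKM of Mbp contralaterally and 610.3, 717, 512, 709 and 945 FPKM in the injected blocks. R55-treated mice had 804, 687, 693, 602 and 535 FPKM of Mbp contralaterally and 691, 438, 488, 336 and 423 FPKM in the injected blocks. The vehicle contralateral blocks alone ran from the lowest Mbp level of the series to its second highest, and they enclosed every R33 and R55 value but that of mouse O injected. Mobp, another abundant protein of compact myelin, had its lowest and highest levels in the same libraries as Mbp. In vehicle-treated mice, Mobp stood at 163, 146, 49.7 and 278 FPKM contralaterally and at 149.8, 174, 169 and 154 FPKM in the injected blocks. R33-treated mice had 159, 166, 172 and 204 FPKM of Mobp contralaterally and 188, 228, 162, 259.9 and 301 FPKM in the injected blocks. R55-treated mice had 229, 210.5, 235, 196 and 168 FPKM of Mobp contralaterally and 219.8, 134, 162, 102 and 131 FPKM in the injected blocks. Within mice, Mobp was lower in the injected than in the contralateral block of all 5 R55-treated mice, and the treatment groups overlapped in both hemispheres. Mog is a glycoprotein on the outermost layer of the myelin sheath. In vehicle-treated mice, Mog stood at 44.8, 23.2, 16.6 and 65 FPKM contralaterally and at 40.6, 37, 54.7 and 38.8 FPKM in the injected blocks. R33-treated mice had 38.4, 42.2, 30.6 and 46.6 FPKM of Mog contralaterally and 33.2, 63.6, 43.7, 52.7 and 80.3 FPKM in the injected blocks. R55-treated mice had 67.3, 41.6, 66.9, 51.1 and 29 FPKM of Mog contralaterally and 60.6, 32.3, 46, 30.4 and 30.4 FPKM in the injected blocks. Mog was lowest in the contralateral blocks of vehicle mice L and J and highest in R33 mouse O injected and R55 mouse AA contralateral. Opalin is a membrane glycoprotein of mature oligodendrocytes. In vehicle-treated mice, Opalin stood at 11.3, 9.10, 5.31 and 22.7 FPKM contralaterally and at 10.1, 12.2, 16.1 and 14.8 FPKM in the injected blocks. R33-treated mice had 10.6, 11.8, 8.51 and 13.9 FPKM of Opalin contralaterally and 11.1, 14.9, 10.9, 10.2 and 23.6 FPKM in the injected blocks. R55-treated mice had 20, 12.8, 19, 18.3 and 9.85 FPKM of Opalin contralaterally and 17.1, 8.37, 12.7, 8.72 and 9.43 FPKM in the injected blocks. As with Mbp and Mobp, vehicle mouse L contralateral was lowest and R33 mouse O injected highest. The other members of this group, Mag, Cnp, Mal, Pllp, Cldn11, Ermn, Gjc3, Tspan2 and Tmem125, differed by 2.83-fold (Pllp) to 5.64-fold (Ermn) between the lowest and the highest library. Mag, the adhesion protein of the inner myelin layer, was the only one of these 9 whose lowest library was not vehicle mouse L contralateral or vehicle mouse J contralateral.

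The enzymes that make myelin lipids or supply acetate for them were represented by Ugt8a, Fa2h, Gal3st1 and Aspa. Ugt8a makes galactosylceramide, the main galactolipid of myelin. In vehicle-treated mice, Ugt8a stood at 16.1, 15.2, 8.56 and 25.8 FPKM contralaterally and at 15.2, 22.3, 24.3 and 16.4 FPKM in the injected blocks. R33-treated mice had 13, 22.8, 14.8 and 21.6 FPKM of Ugt8a contralaterally and 7.76, 18.6, 20.5, 20.9 and 32.3 FPKM in the injected blocks. R55-treated mice had 19, 13.9, 28.3, 17.4 and 11.7 FPKM of Ugt8a contralaterally and 21.3, 13.1, 21.1, 14.5 and 13.4 FPKM in the injected blocks. Here the injected library of R33 mouse AD, in which long genes were low, was lowest, and R33 mouse O injected was highest. Gal3st1, which adds the sulfate of sulfatide, had the smallest fold among the mature members between its lowest and its highest library, at 2.04. In vehicle-treated mice, Gal3st1 stood at 5.14, 4.07, 3.69 and 6.04 FPKM contralaterally and at 5.29, 4.76, 6.83 and 4.78 FPKM in the injected blocks. R33-treated mice had 5.39, 4.79, 3.85 and 5.84 FPKM of Gal3st1 contralaterally and 5.18, 5.37, 4.98, 5.70 and 7.48 FPKM in the injected blocks. R55-treated mice had 7.42, 5.65, 7.52, 6.20 and 4.96 FPKM of Gal3st1 contralaterally and 6.62, 4.53, 5.39, 4.44 and 5.03 FPKM in the injected blocks. Its highest levels lay in R55 mouse P contralateral and R33 mouse O injected, and all groups overlapped. Fa2h, which hydroxylates myelin fatty acids, ran from 9.39 to 38.1 FPKM, and Aspa, which releases acetate from N-acetylaspartate, from 5.28 to 25.5 FPKM.

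Enpp6 and Enpp2 encode a choline phosphodiesterase of new oligodendrocytes and autotaxin, a secreted enzyme that oligodendrocytes share with the choroid plexus. In vehicle-treated mice, Enpp6 stood at 2.27, 1.95, 1.35 and 4.37 FPKM contralaterally and at 2.21, 2.52, 3.69 and 2.44 FPKM in the injected blocks. R33-treated mice had 1.91, 2.93, 1.95 and 3.35 FPKM of Enpp6 contralaterally and 1.28, 2.94, 2.22, 2.52 and 5.02 FPKM in the injected blocks. R55-treated mice had 2.73, 2.27, 3.58, 2.46 and 1.41 FPKM of Enpp6 contralaterally and 2.86, 1.80, 2.49, 1.82 and 1.33 FPKM in the injected blocks. Enpp6 was low throughout, with R33 mouse AD injected lowest and, as for the myelin genes, R33 mouse O injected highest. In vehicle-treated mice, Enpp2 stood at 78.5, 192, 70.2 and 95.2 FPKM contralaterally and at 78.8, 77.3, 134 and 72.3 FPKM in the injected blocks. R33-treated mice had 67.3, 156, 75.2 and 156 FPKM of Enpp2 contralaterally and 44.3, 80.5, 245, 375 and 111 FPKM in the injected blocks. R55-treated mice had 76.9, 71.4, 131, 76.2 and 88.6 FPKM of Enpp2 contralaterally and 73.5, 73.8, 107, 88.2 and 81.9 FPKM in the injected blocks. For Enpp2, 5 libraries stood above the other 22, and these were those high in choroid plexus markers, described further below.

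Of the transcription factors, Myrf drives the myelin genes in differentiating cells. In vehicle-treated mice, Myrf stood at 15.4, 8.45, 6.55 and 24.1 FPKM contralaterally and at 14, 15, 18.4 and 15 FPKM in the injected blocks. R33-treated mice had 10.5, 13.1, 10.5 and 15.2 FPKM of Myrf contralaterally and 6.11, 18.7, 15, 15.5 and 27.8 FPKM in the injected blocks. R55-treated mice had 15.9, 11.9, 18.8, 10.4 and 8.90 FPKM of Myrf contralaterally and 16.4, 11.4, 14, 10.3 and 10.5 FPKM in the injected blocks. Myrf was lowest in R33 mouse AD injected and in vehicle mouse L contralateral. Sox10 marks the whole oligodendrocyte lineage. In vehicle-treated mice, Sox10 stood at 23.3, 17.4, 13.7 and 35.2 FPKM contralaterally and at 22.8, 22.6, 30.2 and 23.7 FPKM in the injected blocks. R33-treated mice had 21.7, 20.6, 16.7 and 23.3 FPKM of Sox10 contralaterally and 18, 27.6, 22, 19.5 and 39.2 FPKM in the injected blocks. R55-treated mice had 29.5, 23.3, 30.4, 21.1 and 17.7 FPKM of Sox10 contralaterally and 31.4, 19.8, 21.8, 17.5 and 17.3 FPKM in the injected blocks. The injected vehicle libraries lay closer together than the contralateral ones for both factors. Olig2 is needed from the first specification of the lineage on and is also present in precursors. In vehicle-treated mice, Olig2 stood at 13.7, 16.6, 9.70 and 20.8 FPKM contralaterally and at 14.8, 18.8, 15.2 and 18 FPKM in the injected blocks. R33-treated mice had 15.3, 13.4, 14.1 and 18.3 FPKM of Olig2 contralaterally and 15.4, 17, 13.9, 16.3 and 24.5 FPKM in the injected blocks. R55-treated mice had 15.5, 16.5, 15.4, 16.5 and 16.5 FPKM of Olig2 contralaterally and 22, 15.1, 14.4, 14.3 and 14.2 FPKM in the injected blocks. Its range was narrower than that of the myelin genes, at 2.53-fold between the lowest and highest library against 4.93-fold for Mbp. Olig1 spanned 2.32-fold and Nkx6-2, a factor of late differentiation, 3.46-fold.

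The remaining mature members are enriched in oligodendrocytes without being parts of myelin only. Bcas1 marks oligodendrocytes that are forming myelin. In vehicle-treated mice, Bcas1 stood at 70, 64.3, 26.7 and 118 FPKM contralaterally and at 70, 75.9, 75.2 and 68.1 FPKM in the injected blocks. R33-treated mice had 74.1, 73.5, 65.2 and 83.9 FPKM of Bcas1 contralaterally and 97.1, 94.3, 70.6, 95.7 and 124 FPKM in the injected blocks. R55-treated mice had 107, 94, 93.1, 80.4 and 85.8 FPKM of Bcas1 contralaterally and 105, 62.3, 71, 45.2 and 63.6 FPKM in the injected blocks. The lowest and highest libraries for Bcas1 were those for Mbp. Car2 is the cytosolic carbonic anhydrase of oligodendrocytes. In vehicle-treated mice, Car2 stood at 90, 109, 52.9 and 147 FPKM contralaterally and at 89.9, 110.1, 117 and 115 FPKM in the injected blocks. R33-treated mice had 104, 113, 93.9 and 129 FPKM of Car2 contralaterally and 128, 111, 113, 121 and 184 FPKM in the injected blocks. R55-treated mice had 139, 117, 126, 107 and 103 FPKM of Car2 contralaterally and 109.6, 80.8, 108, 86.3 and 91.2 FPKM in the injected blocks. In the injected blocks every R55 value of Car2, at most 109.6 FPKM, lay below every R33 value, at least 111 FPKM, as was so for 0.17% of all tested genes, while the vehicle values overlapped both. As for Mbp, Car2 was lower in the injected block of every R55-treated mouse and higher in that of every R33-treated mouse with both hemispheres. Trf encodes transferrin, which oligodendrocytes and choroid plexus both make. In vehicle-treated mice, Trf stood at 155, 119, 72.7 and 233 FPKM contralaterally and at 173, 168, 215 and 189 FPKM in the injected blocks. R33-treated mice had 136, 155, 150.5 and 191 FPKM of Trf contralaterally and 116, 254, 170.3, 260.4 and 309 FPKM in the injected blocks. R55-treated mice had 196, 131, 221, 194 and 107 FPKM of Trf contralaterally and 283, 149.8, 153, 126 and 145 FPKM in the injected blocks. R33 mouse O injected was the highest library for Trf and R55 mouse AA injected the next. Qdpr, which regenerates tetrahydrobiopterin, ran from 79.1 to 236 FPKM, and Ppp1r14a, an inhibitor of myosin phosphatase, from 15 to 55.4 FPKM.

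The 6 precursor members followed the myelin genes less closely or not at all, as described below. Pdgfra is the receptor through which platelet-derived growth factor sustains precursors. In vehicle-treated mice, Pdgfra stood at 7.77, 9.52, 5.98 and 7.0 FPKM contralaterally and at 8.55, 6.87, 5.26 and 5.53 FPKM in the injected blocks. R33-treated mice had 6.75, 5.21, 7.41 and 6.45 FPKM of Pdgfra contralaterally and 3.37, 8.36, 4.94, 5.32 and 7.12 FPKM in the injected blocks. R55-treated mice had 6.38, 6.90, 6.73, 5.45 and 7.55 FPKM of Pdgfra contralaterally and 8.98, 7.62, 6.63, 6.08 and 4.88 FPKM in the injected blocks. Vehicle mouse L contralateral, the lowest library for most myelin genes, lay above 8 other libraries for Pdgfra. Gpr17, a receptor of committed precursors, is switched off before myelination. In vehicle-treated mice, Gpr17 stood at 9.93, 13.1, 8.85 and 10.9 FPKM contralaterally and at 10.5, 10.2, 9.28 and 7.53 FPKM in the injected blocks. R33-treated mice had 10.3, 8.95, 11.6 and 9.13 FPKM of Gpr17 contralaterally and 3.88, 10.5, 7.99, 7.77 and 9.84 FPKM in the injected blocks. R55-treated mice had 9.45, 9.07, 10.3, 8.65 and 9.35 FPKM of Gpr17 contralaterally and 10.7, 9.90, 10.7, 9.03 and 6.06 FPKM in the injected blocks. Both Pdgfra and Gpr17 were lowest in R33 mouse AD injected and highest in vehicle mouse J contralateral. Cspg5 encodes a proteoglycan that neurons also make. In vehicle-treated mice, Cspg5 stood at 111, 101, 95.1 and 75.6 FPKM contralaterally and at 118, 84.7, 88.9 and 84 FPKM in the injected blocks. R33-treated mice had 114, 83.1, 97.5 and 96.4 FPKM of Cspg5 contralaterally and 97, 103, 84.2, 89.5 and 82.6 FPKM in the injected blocks. R55-treated mice had 96.2, 109, 92.5, 119 and 116 FPKM of Cspg5 contralaterally and 109.6, 107, 82.7, 102 and 98.1 FPKM in the injected blocks. Cspg5 had the smallest fold of all members between its lowest and its highest library, at 1.57. Vcan encodes the large proteoglycan versican. In vehicle-treated mice, Vcan stood at 1.44, 0.992, 1.05 and 1.53 FPKM contralaterally and at 1.34, 1.09, 1.14 and 1.07 FPKM in the injected blocks. R33-treated mice had 0.843, 0.967, 1.25 and 1.28 FPKM of Vcan contralaterally and 0.404, 1.31, 0.844, 1.06 and 1.34 FPKM in the injected blocks. R55-treated mice had 0.972, 0.843, 1.08, 0.786 and 1.31 FPKM of Vcan contralaterally and 1.13, 1.06, 1.08, 0.868 and 0.936 FPKM in the injected blocks. At about 1 FPKM, Vcan was the member nearest to the limit of the test. Neu4 is a sialidase of precursors. In vehicle-treated mice, Neu4 stood at 1.89, 2.55, 1.65 and 2.16 FPKM contralaterally and at 1.88, 1.90, 1.76 and 1.67 FPKM in the injected blocks. R33-treated mice had 1.95, 1.49, 2.14 and 1.80 FPKM of Neu4 contralaterally and 1.56, 2.0, 1.33, 1.61 and 2.50 FPKM in the injected blocks. R55-treated mice had 2.12, 1.74, 1.90, 2.06 and 2.29 FPKM of Neu4 contralaterally and 1.88, 1.70, 2.09, 1.45 and 1.57 FPKM in the injected blocks. Neu4 was highest in vehicle mouse J contralateral, as Pdgfra and Gpr17 were, and lowest in R33 mouse K injected. Lhfpl3, whose function is less clear, ran from 4.96 to 13.8 FPKM, with R33 mouse O injected at the top.

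Across the 27 libraries, the median Pearson r over the 406 pairs of mature members was 0.82, against 0.59 over the 15 pairs of precursor members and 0.20 over the 174 pairs of a mature and a precursor member. These are descriptions without a test, since the libraries share mice and all values share the scaling of their library. The mature median stayed at 0.83 after the mean of each of the 6 groups was removed, and was 0.71 without vehicle mouse L contralateral and R33 mouse O injected. The median between mature and precursor members moved more, to 0.34 with the group means removed and to 0.087 without those libraries. Over the pairs of mature members, the median was 0.88 in the 18 libraries of mice with single-letter labels. It was 0.73 in the 9 libraries of mice with double-letter labels, a division of the mouse labels that the sources do not explain. Cldn11 followed the mean of the other mature members most closely (r = 0.967), then Cnp (r = 0.961), Mog (r = 0.958) and Mal (r = 0.957). Olig2 (r = 0.727), Olig1 (r = 0.678) and above all Enpp2 (r = 0.242) followed it least. Among precursors, r with the mature mean ran from -0.368 for Cspg5 to 0.450 for Lhfpl3.

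**Figure D2:**
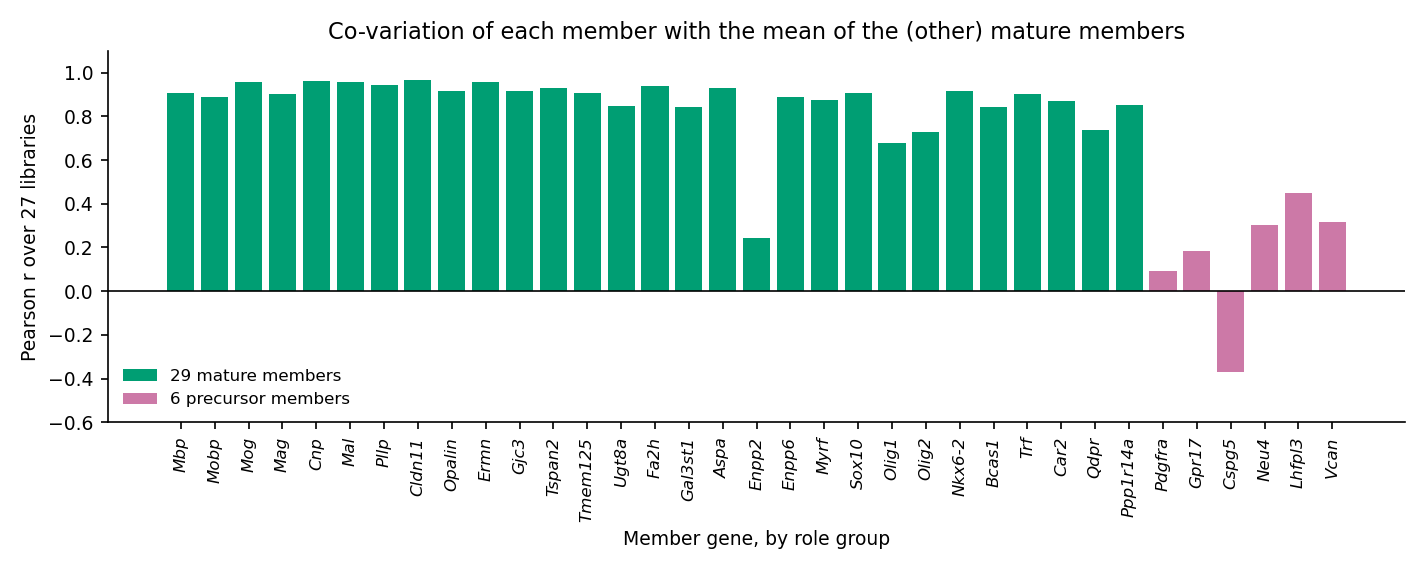
Pearson r (vertical axis) over 27 libraries between log2(FPKM + 1) of each member (horizontal axis, by role group) and the mean of the mature members, leaving the gene itself out. Bars of the 29 mature members are green and those of the 6 precursor members pink. The mature members have a median of 0.905, with Enpp2 lowest at 0.242, and the precursor members have a median of 0.244.

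Because the mature members moved together, the promoters of the members were read from a RefSeq table on build GRCm38.p6, an older build than the GRCm39 used for alignment. Each window covers 250 bases before to 50 bases after a transcription start, and 24 of the 35 members had at least 1 window. Each was searched on both strands for AACAAT and for ACAAAG, letters that Sox factors can bind. It was also searched for an E-box spelled CAGCTG and an E-box spelled CATCTG, which Olig and related factors can bind. ACAAAG was found in 5 of the 24 members and in 21.0% of all 27025 genes of the table, AACAAT in 3 of 24 and 12.2%, CAGCTG in 3 of 24 and 18.3%, and CATCTG in 8 of 24 and 19.2%. No test was made of these shares. The windows with the most matches among the members belonged to Mobp (chr9:120149492-120149791, plus strand), with 6 matches to ACAAAG, to Opalin (chr19:41077064-41077363, minus strand), with 2 matches to ACAAAG and 1 to each E-box, and to Aspa (chr11:73324588-73324887, minus strand), with 1 match to AACAAT and 1 to each E-box. They are shown as the clearest examples of such letters beside genes that moved together, 5′ to 3′ on the strand of the gene, with matches on either strand in capitals. No match overlapped another in these windows.
Mobp: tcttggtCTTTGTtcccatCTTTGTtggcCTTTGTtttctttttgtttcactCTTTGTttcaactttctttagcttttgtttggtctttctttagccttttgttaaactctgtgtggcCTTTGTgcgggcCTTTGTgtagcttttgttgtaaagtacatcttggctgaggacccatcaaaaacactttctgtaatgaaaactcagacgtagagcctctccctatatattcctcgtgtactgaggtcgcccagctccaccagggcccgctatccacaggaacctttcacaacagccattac
Opalin: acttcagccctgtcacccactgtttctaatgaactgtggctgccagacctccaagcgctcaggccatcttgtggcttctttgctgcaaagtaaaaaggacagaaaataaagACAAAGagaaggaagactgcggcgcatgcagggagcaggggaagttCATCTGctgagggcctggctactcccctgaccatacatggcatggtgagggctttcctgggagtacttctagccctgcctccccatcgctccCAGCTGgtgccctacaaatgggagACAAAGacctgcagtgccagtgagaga
Aspa: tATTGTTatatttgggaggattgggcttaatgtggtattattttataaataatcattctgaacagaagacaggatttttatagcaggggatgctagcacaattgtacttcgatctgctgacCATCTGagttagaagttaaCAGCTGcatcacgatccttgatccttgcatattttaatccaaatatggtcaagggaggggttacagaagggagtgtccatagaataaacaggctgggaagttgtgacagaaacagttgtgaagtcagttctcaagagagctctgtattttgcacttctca

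In the Mobp window all 6 matches read CTTTGT, the reverse complement of ACAAAG, and lie in the part of the window farthest before the start. The genes of the 3 windows had an r with the mean of the other mature members of 0.890 (Mobp), 0.915 (Opalin) and 0.932 (Aspa). The windows of Mog, Mal, Ermn and Ugt8a, with an r of 0.849 to 0.958, held no match to these letters. A match is a description of letters and not a binding site, and the lack of one says nothing of the factor.

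The spread of the mature members was larger than that of most genes. After treatment and hemisphere were fitted, their residual SD had a median of 0.43 on the log2 scale (range 0.22 to 0.68), compared to 0.23 (range 0.15 to 0.31) for the precursor members and 0.17 for all tested genes. The SD between mice was taken on the mean of both blocks, whereas the SD between hemispheres of a mouse refers to a single block. Averaging alone lowers the SD between mice, so these SDs do not show whether paired blocks differed as much as different mice. The SD between hemispheres was the larger in 27 of 29 mature members, 3 of 6 precursor members and 6054 of all 12976 tested genes. For the mature members the medians were 0.40 between hemispheres and 0.33 between mice. The mean over the mature members deviated from its group in one hemisphere with little relation to the other (r = 0.12 over the 13 mice, as a description). Beside this spread, the mature mean had an r of 0.45 with hippocampal neuron markers, 0.25 with choroid plexus markers, 0.23 with layer 6b markers, 0.18 with striatal markers and -0.42 with markers of the upper cortical layers. The part of block position in the spread was not tested. According to the methods, the dissection aimed to leave out the corpus callosum.

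R55 against vehicle asked whether the compound shifted these genes in the blocks of both hemispheres. No member was called (0 of 35, beside 0.00771% of all tested genes), and none had an unadjusted p under 0.05, beside 8.45% of all tested genes. The median member difference was 0.06, with 21 of 35 higher, compared to a median of 0.03 over all tested genes. Vcan had the smallest p, with a difference of -0.13 ± 0.08 (SE), unadjusted p = 0.114 and adjusted p = 0.622 in limma. Cspg5 differed by 0.13 ± 0.08 (SE), unadjusted p = 0.132 and adjusted p = 0.631 in limma. Gal3st1 differed by 0.16 ± 0.11 (SE), unadjusted p = 0.153 and adjusted p = 0.64 in limma. These were a proteoglycan of precursors, one shared with neurons and the sulfatide enzyme, and none passed the test. For Mbp, the difference was 0.15 ± 0.21 (SE) with a 95% interval of -0.27 to 0.58. By role, the median was 0.10 for the 13 myelin membrane genes, 0.14 for the 5 other enriched genes, -0.02 for the transcription factors and -0.04 for the precursors. The 95% intervals of the 35 members differed in width, and their outermost bounds were a 0.602-fold and a 1.61-fold level. The median member difference was -0.05 without vehicle mouse L and 0.14 without vehicle mouse M. Within mice of single-letter labels the median member difference was -0.01, and within double-letter labels, with 1 vehicle-treated mouse, it was 0.14.

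R33 against vehicle asked the same of the other compound. No member was called (0 of 35, beside 0% of all tested genes), none had an unadjusted p under 0.05, beside 5.87% of all tested genes, and the median member difference was 0.11 with 29 of 35 higher, compared to 0.02 over all genes. Mobp had the smallest p, with a difference of 0.43 ± 0.23 (SE), a 95% interval of -0.03 to 0.90, unadjusted p = 0.0672 and adjusted p = 0.838 in limma. Bcas1 differed by 0.34 ± 0.20 (SE), unadjusted p = 0.0981 and adjusted p = 0.85 in limma. Car2 differed by 0.25 ± 0.15 (SE), unadjusted p = 0.102 and adjusted p = 0.85 in limma. None of these 3 genes, which all belong to mature cells, passed the test. Of the 13 myelin membrane genes, all 13 had values above 0 with a median of 0.18, and the 6 precursors had a median of -0.09, with Pdgfra at -0.19 ± 0.13 (SE) and Gpr17 at -0.18 ± 0.13 (SE). The median member difference was 0.0022 without mouse O, whose injected block had the highest myelin levels, and 0.25 without vehicle mouse M. It was 0.20 within single-letter labels and -0.01 within double-letter labels. Both comparisons use the same vehicle-treated mice, so their values are not independent.

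R55 against R33 compared the pair of compounds at the same concentration, volume and time, the only pair the series offers. The fit called 0 of 35 members, beside 0% of all tested genes, and none had an unadjusted p under 0.05, beside 1.15% of all tested genes. The median member difference was -0.09 with 7 of 35 higher, compared to 0.00 over all tested genes. It was 0.04 without R33 mouse O and -0.18 without R55 mouse AA. Enpp2 had the smallest p, with a difference of -0.47 ± 0.28 (SE), a 95% interval of -1.05 to 0.12, unadjusted p = 0.112 and adjusted p = 0.9998 in limma. Cspg5 differed by 0.13 ± 0.08 (SE) (95% interval -0.04 to 0.29). Car2 differed by -0.18 ± 0.14 (SE) (95% interval -0.47 to 0.11). Mbp differed by -0.15 ± 0.20 (SE) (95% interval -0.56 to 0.27), Mog by -0.08 ± 0.22 (SE) (95% interval -0.53 to 0.38) and Pdgfra by 0.13 ± 0.12 (SE) (95% interval -0.12 to 0.38). The intervals of the 35 members reached from a 0.484-fold to a 1.41-fold level in R55-treated relative to R33-treated mice, so the data do not show that the compounds act alike on these genes. Within single-letter labels the median member difference was -0.23, and within double-letter labels it was 0.13.

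**Figure D3:**
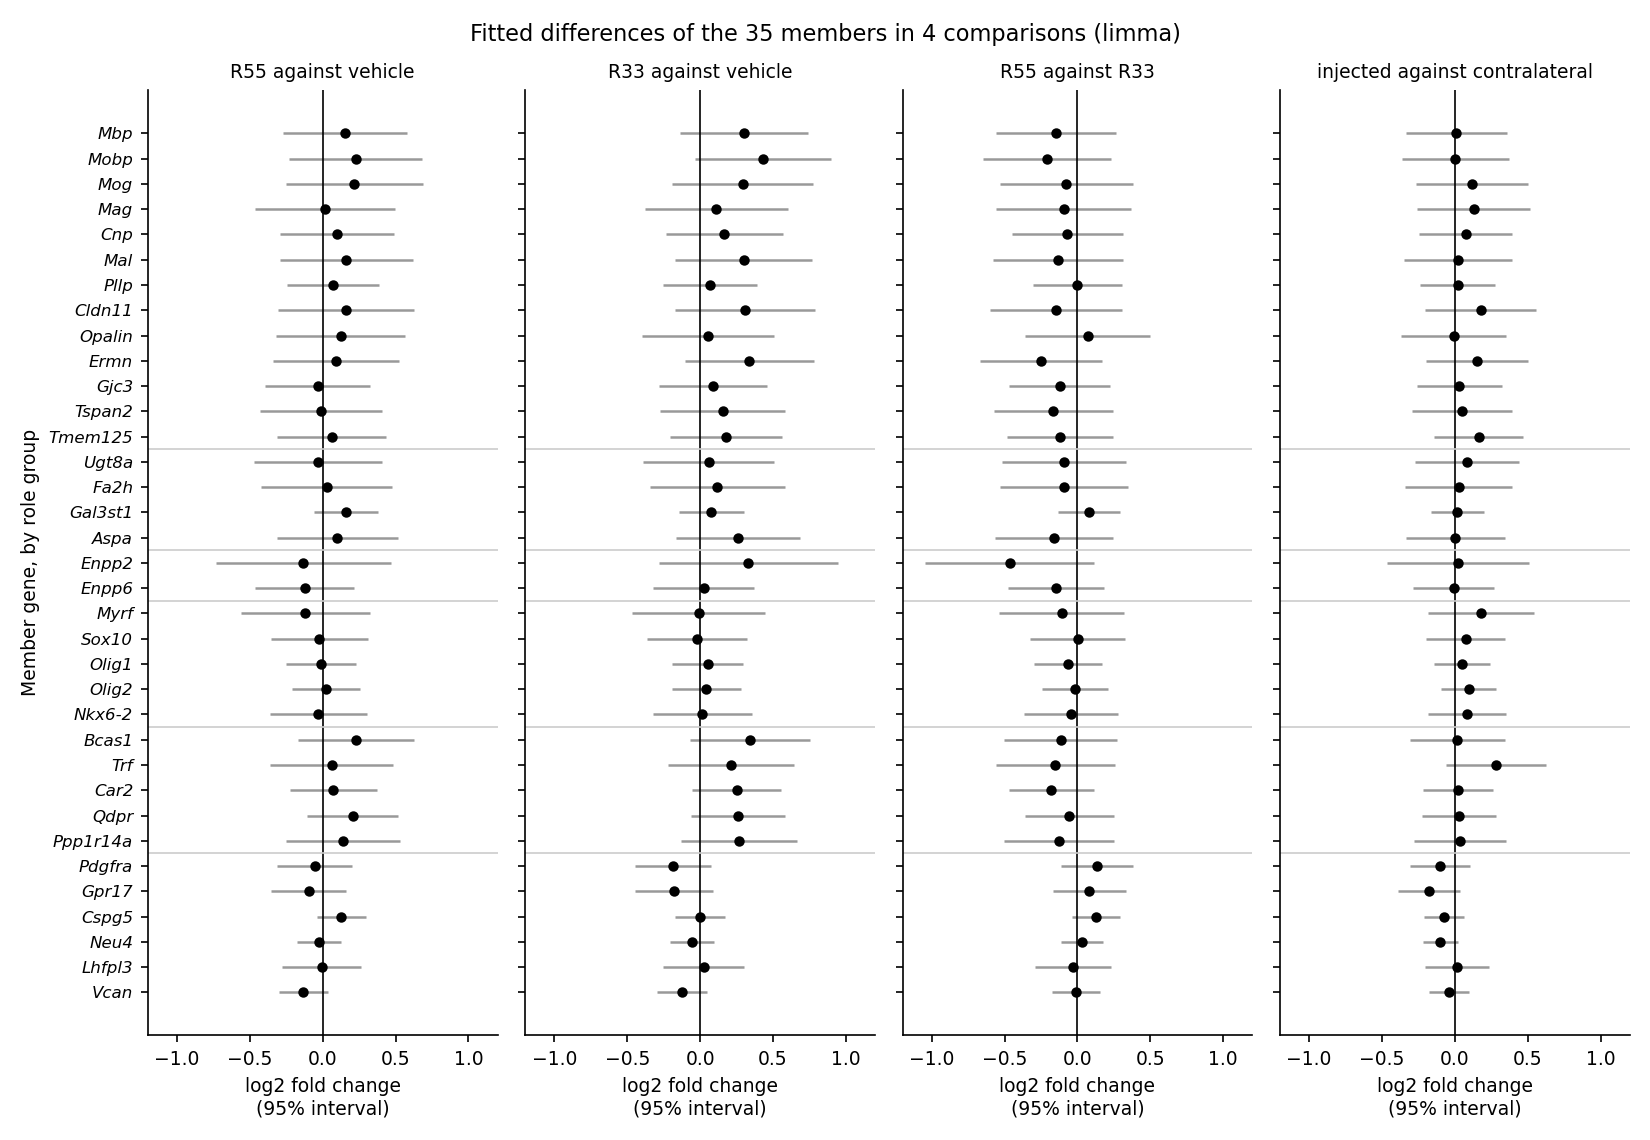
Fitted log2 fold change (dots) with its 95% interval (lines) for each of the 35 members (rows, by role group) in the 4 comparisons, from limma on log2(FPKM + 1) in 27 libraries. Every interval includes 0, from the narrow intervals of Neu4, Cspg5 and Vcan to the wide ones of Enpp2.

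Injected against contralateral asked whether the injection shifted these genes, over all treatments. None of the members was called (0 of 35, beside 0% of all tested genes), and none had an unadjusted p under 0.05, beside 3.47% of all tested genes. The median member difference was 0.03 with 28 of 35 higher, against 0.00 over all genes, and it was -0.05 without vehicle mouse L and 0.08 without vehicle mouse M. Gpr17 differed by -0.18 ± 0.10 (SE), unadjusted p = 0.0981 and adjusted p = 0.9999 in limma. Neu4 was at -0.10 ± 0.06 (SE), unadjusted p = 0.0987 and adjusted p = 0.9999 in limma. Trf was at 0.28 ± 0.17 (SE), unadjusted p = 0.105 and adjusted p = 0.9999 in limma. A pair of precursor genes and the transferrin gene thus had the smallest p, and none passed the test. The 13 myelin membrane genes had a median of 0.05 and the 6 precursors of -0.09, of which 5 were lower. Within single-letter labels the median member difference was 0.13, and within double-letter labels it was -0.07. Where the mouse was fitted as a block, which the shared brain of both hemispheres warrants, no member was called either (0 of 35, beside 0% of all tested genes) and the median member difference was 0.02. With the mouse as a modelled correlation the median was 0.03, again with no member called, beside 0.00771% of all tested genes.

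Within mice, the blocks of each brain were set against each other. The mean of the mature members, on the log2 scale, differed between the injected and the contralateral block by -0.05 (AA), -0.37 (AB), -0.42 (P), -0.50 (Q) and 0.02 (R) in R55-treated mice, and so was lower in the injected block of 4 of 5. In R33-treated mice the injected minus contralateral difference was -0.10 (AD), 0.04 (K), 0.55 (N) and 0.57 (O). Vehicle-treated mice spread widest, with -0.06 (AH), 0.35 (J), 1.30 (L) and -0.58 (M). In all, 8 members, Mbp, Mobp, Pllp, Opalin, Gjc3, Bcas1, Car2 and Qdpr, were lower in the injected block of every R55-treated mouse, as were 5.26% of all tested genes. Conversely, 9 members, Mbp, Cldn11, Tmem125, Olig1, Olig2, Nkx6-2, Car2, Qdpr and Ppp1r14a, were higher in the injected block of all 4 R33-treated mice with both blocks, as were 7.35% of all tested genes. No member was higher in the injected block of all 4 vehicle-treated mice, beside 7.67% of all tested genes, and none lower, beside 4.28%. Mbp, Car2 and Qdpr were in both sets, higher in every such R33-treated mouse and lower in every R55-treated mouse, as were 0.547% of all tested genes. Since the mature members moved together, these counts are not counts of separate events.

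**Figure D4:**
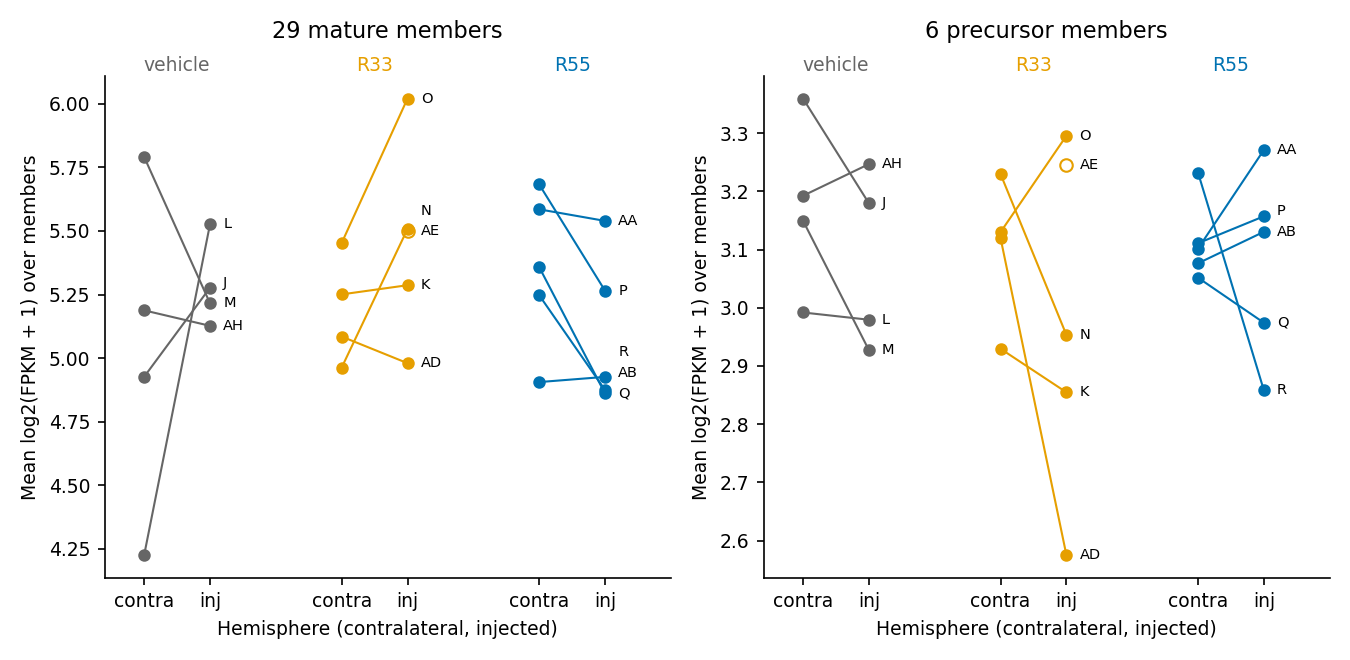
Mean log2(FPKM + 1) over the 29 mature members (left) and the 6 precursor members (right) in the contralateral and the injected block of each mouse, joined by a line and labelled with the mouse, by treatment. The open symbol is R33 mouse AE, of which the injected block only was used. The mature mean is lower in the injected block of 4 of 5 R55-treated mice, the vehicle contralateral blocks span from 4.23 to 5.79, and the vertical axes of the panels differ.

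Fitted as an interaction, the R55 minus vehicle difference was lower in the injected hemisphere in 31 of 35 members, with a median of -0.47 compared to -0.03 over all tested genes. No member was called (0 of 35, beside 0% of all tested genes), and 3 members had an unadjusted p under 0.05, all lower, beside 1.24% of all tested genes. These were Qdpr (-0.60 ± 0.27 (SE), unadjusted p = 0.034 and adjusted p = 0.999 in limma), Ppp1r14a (-0.73 ± 0.34 (SE)) and Gal3st1 (-0.41 ± 0.20 (SE)). This fit held no mouse term, and the named members changed with the mouse as a block. Qdpr (-0.60 ± 0.21 (SE)) and Gal3st1 (-0.41 ± 0.18 (SE)) remained under that limit, Opalin, Car2, Aspa and Mbp joined them, and Ppp1r14a did not remain. None was called (adjusted p = 0.806 in limma for each of these 6), and the share of all tested genes is not given for that fit. The 1.24% belongs to the fit without a mouse term and does not carry over. No strengthening can therefore be read from these 6 names. The interaction depended on which vehicle-treated mice were in. In the fit without a mouse term, its median was -0.14 without mouse L and -0.73 without mouse M. For R33 the corresponding median was 0.00, with no member called (0 of 35, beside 0% of all tested genes), and without mouse L it was 0.32. Within each hemisphere, the median member difference of R55 against vehicle was 0.30 contralaterally, with 29 members higher, and -0.18 in the injected blocks, with 33 lower, and no member was called in either (0 of 35, beside 0% of all tested genes). In the contralateral blocks, 2 members, Qdpr and Gal3st1, were higher at an unadjusted p under 0.05, beside 6.74% of all tested genes. In the injected blocks, R55 against R33 had a median member difference of -0.32, and 10 members were lower at an unadjusted p under 0.05, beside 1.83% of all tested genes, with none called (smallest adjusted p = 0.9996 in limma). They were Ppp1r14a, Car2, Mobp, Mbp, Tmem125, Qdpr, Bcas1, Ermn, Aspa and Nkx6-2, at -0.62 (Mobp) to -0.34 (Nkx6-2). For the fits within a hemisphere, the median and the share of higher genes over all tested genes are not given. Since the mature members moved together, these counts of members are not counts of separate events.

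A contrast of the 2 compounds in the hemisphere difference, added after these values were seen, was lower for R55 than for R33 in 31 of 35 members, with a median of -0.42. The corresponding median over all tested genes is not given. Again no member was called (0 of 35, beside 0% of all tested genes, smallest adjusted p = 0.875 in limma), and 8 members had an unadjusted p under 0.05, all lower, beside 1.99% of all tested genes. Qdpr was at -0.77 ± 0.26 (SE), Ppp1r14a at -0.92 ± 0.33 (SE) and Mbp at -0.88 ± 0.37 (SE). With the mouse as a block the median was -0.44, 9 members had an unadjusted p under 0.05, beside 6.38% of all tested genes that were lower, and none was called (smallest adjusted p = 0.377 in limma). With each mouse left out in turn, the median stayed between -0.56 and -0.36.

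Enpp2 was high where choroid plexus markers were high. In 5 libraries, vehicle mouse J contralateral, R33 mouse K in both hemispheres, R33 mouse N injected and R33 mouse O contralateral, the mean log2 value of the choroid plexus and ependyma markers was above 3. In these, Ttr, the transthyretin gene of the choroid plexus, stood at 401 to 1616 FPKM, compared to 2.09 to 147 FPKM in the other 22. Enpp2 stood at 156 to 375 FPKM in the 5 and at 44.3 to 134 FPKM in the 22. The mature mean, at 4.93 to 5.51, lay within the range of the others, 4.23 to 6.02. The summed level of the 7 choroid plexus and ependyma markers ran from 6.80 to 73.8 FPKM in R55 injected, from 13.7 to 165 FPKM in R55 contralateral, from 11.9 to 1664 FPKM in R33 injected, from 13.1 to 726 FPKM in R33 contralateral, from 10.4 to 164 FPKM in vehicle injected and from 10.1 to 1142 FPKM in vehicle contralateral blocks. Thus R33 and vehicle blocks, but no R55 block, were among the 5. Of the 7 markers, Tmem212 alone was at 0 in any library, in 4. Without the 5 libraries, a comparison chosen after seeing the data, Enpp2 in R55 against R33 was at 0.23 rather than -0.47. All R33 libraries among the 5 came from mice with single-letter labels, and the Enpp2 difference was -0.79 within single-letter and 0.24 within double-letter labels, with no call in either.

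**Figure D5:**
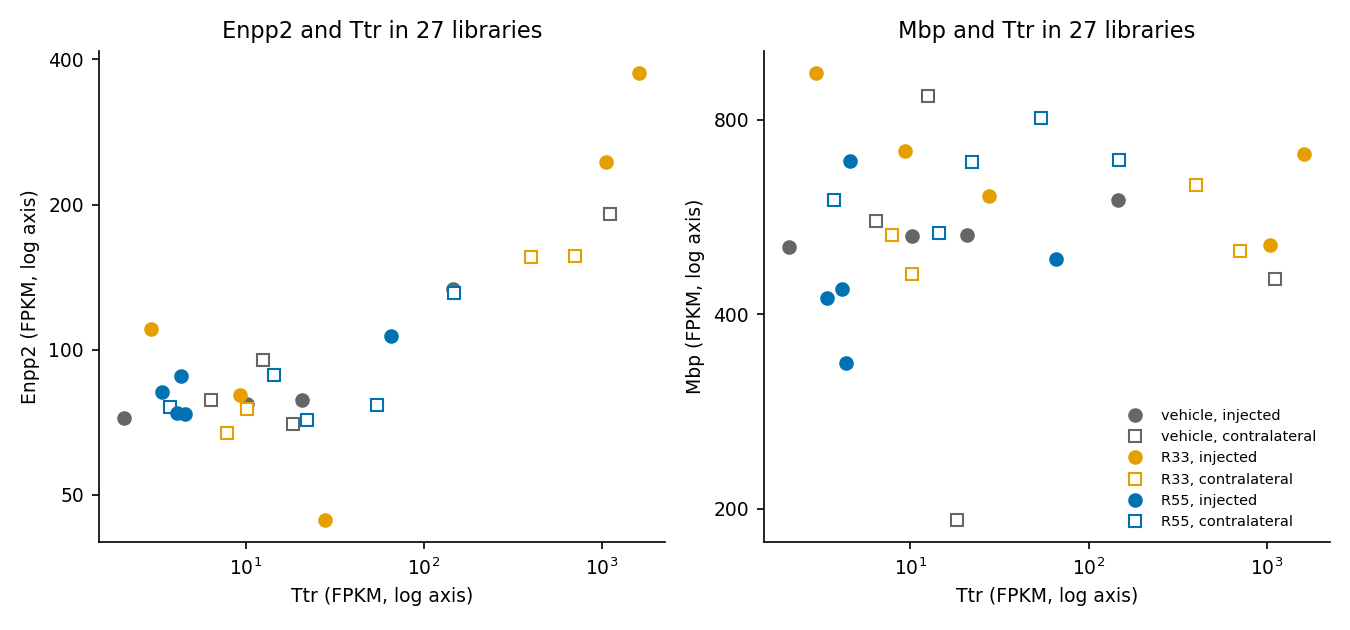
Enpp2 (left) and Mbp (right) against the choroid plexus gene Ttr in 27 libraries, in FPKM on log axes, with colour for treatment, filled circles for injected and open squares for contralateral blocks. Enpp2 is at 156 to 375 FPKM in the 5 libraries with Ttr at 401 to 1616 FPKM, and Mbp shows no such rise.

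The injected library of R33 mouse AD set the low end of several members. It was below all other R33 injected libraries for 20 of the 35 members, among them Mag, Myrf, Ugt8a, Tspan2, Gpr17 and Pdgfra, and above them for Qdpr. The share of all tested genes that were lowest in this library is not given, so the count is no result about the members. Relative to the mean of the other R33 injected libraries, the 18 members with genes of at most 2713 bases differed by a median of -0.31 and the 17 longer ones by -0.74, while over all tested genes the Spearman rho with gene length was -0.674. Mbp (6718 bases) and Mobp (6489 bases) went against this order, at -0.21 and -0.30. The part of gene length in the members' values was not tested. With the length trend removed from each library no member was called in the 4 comparisons. None was called before either, so this does not bear on gene length. Mobp in R33 against vehicle was then at 0.48 ± 0.23 (SE), adjusted p = 0.919 in limma, against 0.43 in the main fit. The hemisphere interactions were not refitted in this way. Ppp1r14a (531 bases) and Qdpr (1394 bases), named there, are the shortest members. Without this library, a comparison chosen after seeing the data, the median member difference of R33 against vehicle was 0.20 in place of 0.11.

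Genes of the same cells outside the members moved with them. Of 49 tested genes of a list of mature oligodendrocyte genes, 27 had an r over 0.8 with the mature mean, compared to 1.02% of all tested genes and 0 of 18 tested precursor genes. Outside the lists, the tested genes most like the mature mean included Kcnk13 (r = 0.938), Trim59, Tnfaip6, Itgb4, Plekhg3, Olfml1, Tmem98, Cyp2j12 and Prr18 (r = 0.927) over 27 libraries. None of the 49 mature or 18 precursor genes was called in any of the 4 comparisons. The median difference of the mature list was 0.03 in R55 against vehicle, 0.11 in R33 against vehicle, -0.06 in R55 against R33 and 0.08 in injected against contralateral blocks, and that of the precursor list was -0.03, -0.09, 0.06 and 0.00. In R55 against vehicle, no mature gene and 3 of 18 precursor genes had an unadjusted p under 0.05, beside 8.45% of all tested genes, Sema5a (-0.67 ± 0.21, SE), Tnr (-0.40 ± 0.17, SE) and Xylt1 (-0.38 ± 0.16, SE), and Nfasc, Ninj2 and Bmp4 had the smallest p among the mature genes. In R33 against vehicle, beside 5.87% of all tested genes, 4 of 18 precursor genes were lower at an unadjusted p under 0.05, led by Cspg4 (-0.30 ± 0.12, SE), a proteoglycan of precursors, and 2 of 49 mature genes, Rnf13 (0.21 ± 0.10, SE) and Klk6 (0.56 ± 0.26, SE), were higher. In R55 against R33 none of either list had an unadjusted p under 0.05, beside 1.15% of all tested genes, with Apod, Hapln2 and Ndrg1 the nearest among the mature and Matn4, Sox5 and Cspg4 among the precursor genes. In injected against contralateral, Klk6, a protease of oligodendrocytes, was higher (0.54 ± 0.21, SE, unadjusted p = 0.0150 in limma), the only 1 of 49 mature genes with an unadjusted p under 0.05, beside 3.47% of all tested genes. No precursor gene had one.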

How the data were processed

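The authors aligned stranded mRNA reads to GRCm39 with HISAT2 and deposited 1 table of FPKM values; the counting tool and gene annotation are not given in the sources used here. The table held 32 leftover header lines, which were removed, and 5 of its 32 libraries were not used. Fragments recovered from the FPKM steps were whole within 0.01 for 100% of values. Genes with a mean of 1 FPKM or more were fitted on log2(FPKM + 1) with limma 3.58.1 in R 4.3.3 (treatment and hemisphere additive, empirical Bayes with trend, Benjamini-Hochberg adjustment over all tested genes, two-sided), after a check on simulated data. Interactions of treatment with hemisphere were fitted in the same libraries.

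Members and lists were chosen with earlier results of these data known. Values in every library are given for 11 members that cover the roles and, per comparison, for the 3 members with the smallest p. From the gene lists, the 3 genes with the smallest p in each comparison are named. Outside the lists, genes were taken from the 10 most correlated with the mature mean. Some items are not reported here.

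Both hemispheres of a mouse were paired by the mouse in the labels. Over all tested genes, the deviations of the paired blocks correlated with a mean r of 0.39 (-0.079 to 0.65), above 0.1 in 11 of 13 mice. The main fit held no mouse term, so its p-values treat the blocks of a mouse as separate samples, and the p-values of the blocked fits are given as alternatives. Depth, at 15932196 to 38077026 fragments per library, left counting error small for the mature members, and less so for Neu4 and Vcan. Promoter windows came from RefSeq on GRCm38.p6.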

Additional observations from a re-analysis of the deposited data

Results flagged for a closer look

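Several single libraries stood far from the others of their group, by Dixon's criterion, in 12 of the 174 combinations of item and group tested, and chance flags about 1 in 20.

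In vehicle injected blocks, mouse L was high for Sox10 (30.18 FPKM, next 23.66 FPKM), Ppp1r14a (46.24 FPKM, next 30.85 FPKM) and Enpp2 (133.7 FPKM, next 78.81 FPKM), and hence for the mean over Enpp2 and Enpp6 (4.651 on the log2 scale). Mouse AH was high there for Cspg5 (117.8 FPKM, next 88.89 FPKM). In R55 injected blocks, mouse AA was high for Olig2 (21.99 FPKM, next 15.13 FPKM), Olig1 (93.92 FPKM, next 64.19 FPKM) and Trf (282.6 FPKM, next 153 FPKM). In R33 injected blocks, mouse O was high for Gal3st1 (7.484 FPKM, next 5.704 FPKM) and Car2 (184.4 FPKM, next 127.8 FPKM). In R55 contralateral blocks, mouse P was high for Enpp2 (131.1 FPKM, next 88.65 FPKM) and for the mean over Enpp2 and Enpp6 (4.621 on the log2 scale). The injected block of mouse L was also 1 of the 2 libraries high in striatal markers, and the choroid plexus gene Ttr stood at 146 FPKM there. In the contralateral block of R55 mouse P, Ttr stood at 147 FPKM. These were the highest Ttr levels after the 5 libraries high in choroid plexus markers, and the part of either marker list in the values was not tested.

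Mbp, Car2 and Qdpr were higher in the injected than in the contralateral block of all 4 R33-treated mice with both blocks and lower in all 5 R55-treated mice, as were 0.547% of all tested genes. Having been picked for this pattern, their differences are a description. The difference between the compounds in this hemisphere difference was fitted for R55 minus R33. It was -0.88 for Mbp, -0.56 for Car2 and -0.77 for Qdpr on the log2 scale, and it did not pass the adjusted threshold in limma (adjusted p of at least 0.875).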

How the results depend on the processing

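No member was called under any of the 34 settings fitted (smallest adjusted p = 0.314 in limma, Cspg5 in R55 against vehicle without mouse AH). Since few or no genes of the whole table were called in any comparison, this says nothing of stability. For the median member difference, a move was set against the spread between mice, an SD of 0.24. This limit was larger than each main median of the 4 comparisons, so a median that vanished or changed sign could count as unmoved. The median member difference moved by less than this limit in 160 of 164 alternatives, which therefore says little of stability. The exceptions were R55 against vehicle in the contralateral blocks alone (0.30 against 0.06) and, in the interactions, R55 without mouse M (-0.73) and without mouse L (-0.14) and R33 without mouse L (0.32). With each mouse left out, the R33 interaction reached -0.24 at its lowest (without M). With 1 mouse left out, the medians of the 4 comparisons ran from -0.05 to 0.14 (R55 against vehicle), from 0.0022 to 0.25 (R33 against vehicle), from -0.18 to 0.04 (R55 against R33) and from -0.05 to 0.08 (injected against contralateral). With the mouse as a replicate block by a modelled correlation of 0.35 the medians were 0.06, 0.12, -0.10 and 0.03, and the block changed no member call. Uncalled differences of the named members changed sign in 174 of 1736 alternative values. Alternatives without the libraries high in choroid plexus or striatal markers or without the injected library of mouse AD, and the contrast of the compounds in the hemisphere difference, were chosen after seeing the data. Over all genes, R55 against vehicle called 1 gene, 12 with the compared treatments alone, 5 within single-letter labels, 19 without the injected library of AD and 0 with the replicate block.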
